A study of Mus musculus with 24 samples.

Results

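Genes of de novo lipogenesis were followed in quadriceps, a large and mostly fast-twitch thigh muscle of the mouse. The 10 genes listed, Fasn, Acly, Acaca, Slc25a1, Thrsp, Me1, Scd1, Scd2, Elovl6 and Acss2, were taken from the pathway by name, and their probe sets through the annotation of the array. Of the 10, 8 had a probe set of their own among 14754 genes with one, and these 8 were all among the 5793 genes tested. Me1 shared its probe sets with other genes and its level is given only as such, and the level of Acaca was not analysed here.

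The animals were male C57BL/6J mice (the sample labels write C56BL/6J), which after a run-in on a low fat diet were assigned at random to palm oil diets. High fat mice received 45% of their energy as palm oil and low fat mice 10%. The 4 groups were high fat for 28 days, low fat for 28 days, high fat for 3 days and low fat for 3 days, with 6 mice each. Mice of day 28 were 16 weeks old and mice of day 3 were 12 weeks old, so age and time on the diet cannot be told apart. Each mouse gave 1 Affymetrix array, on which the brightness of a set of short probes reads the RNA of a gene, and levels are given here as log2 intensity. Tests are those of limma over all 24 arrays, with a call at a Benjamini-Hochberg adjusted p under 0.05 over the 5793 genes. High fat mice carried numbers 1751 to 1772 and low fat mice 2010 to 2025, so diet and the range of mouse numbers cannot be told apart. The labels name no batch. The number of arrays limits the precision.

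De novo lipogenesis builds fatty acids from surplus carbon in the cytosol. Citrate leaves the mitochondrion through the carrier Slc25a1 and is split by Acly into acetyl-CoA, which Acss2 can also make from acetate, and Acaca turns acetyl-CoA into malonyl-CoA. Fasn joins these units into palmitate with NADPH that in part comes from Me1, Elovl6 lengthens palmitate, and the desaturases Scd1 and Scd2 introduce a double bond. The pathway is known to be strong in liver, white and brown fat and weak in skeletal muscle fibres, and insulin raises it through the transcription factor SREBP-1c and glucose through ChREBP.

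The promoters printed here are those of the 3 members with more than 1 CCAAT box. CCAAT is the pentamer bound by NF-Y, a known partner of SREBP factors. Each window runs from 250 bases before to 50 after the gene's start in RefSeq, build GRCm38.p6, 5′ to 3′ on the gene's strand, with every CCAAT and its reverse complement ATTGG in capitals.
Fasn, chr11:120824498-120824797, minus strand: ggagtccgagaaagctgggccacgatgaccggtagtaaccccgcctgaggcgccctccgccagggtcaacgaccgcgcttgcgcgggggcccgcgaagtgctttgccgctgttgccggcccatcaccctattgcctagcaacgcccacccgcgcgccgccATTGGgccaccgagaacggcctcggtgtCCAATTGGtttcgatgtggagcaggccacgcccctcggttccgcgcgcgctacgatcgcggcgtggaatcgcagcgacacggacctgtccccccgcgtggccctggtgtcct
Slc25a1, chr16:17928170-17928469, minus strand: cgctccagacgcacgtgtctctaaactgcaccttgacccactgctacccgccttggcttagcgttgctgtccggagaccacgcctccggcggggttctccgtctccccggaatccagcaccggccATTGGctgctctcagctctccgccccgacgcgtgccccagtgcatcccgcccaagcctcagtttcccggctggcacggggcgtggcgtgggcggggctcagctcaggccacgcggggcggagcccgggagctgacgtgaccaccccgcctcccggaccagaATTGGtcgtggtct
Thrsp, chr7:97417501-97417800, minus strand: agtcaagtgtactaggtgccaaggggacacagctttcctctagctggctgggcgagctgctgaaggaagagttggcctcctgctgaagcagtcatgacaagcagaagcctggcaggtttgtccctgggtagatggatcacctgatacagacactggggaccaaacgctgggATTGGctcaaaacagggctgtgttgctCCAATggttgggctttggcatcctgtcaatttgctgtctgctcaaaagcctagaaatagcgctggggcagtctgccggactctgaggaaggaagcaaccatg

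Of the 10 members, 8 had a promoter window in the RefSeq table, Acaca and Me1 among them, and Scd1 and Scd2 had none. On either strand, CCAAT stood in a window of 6 of the 8 (Fasn, Slc25a1, Thrsp, Acly, Acss2 and Me1), against 41.1% of 27025 genes. The Fasn window held 3 matches, of which 2 overlap. In Fasn and Thrsp every match lay before the start, from position -90 to position -52 relative to it. The E-box CACGTG was found in 1 of the 8, Slc25a1, against 8.09% of all genes, and overlaps none of its CCAAT matches. The SREBP site letters TCACNCCAC were found in 0 of the 8, against 1.44% of all genes. These matches describe letters within the windows only.

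After 28 days, 8 of the 8 tested members were lower on high fat, and for none of them did the 6 high fat mice overlap the 6 low fat mice. Among all 5793 genes, 7.18% were called lower and 5.35% higher in this comparison, and in 4.56% every high fat mouse lay below every low fat mouse. The median log2 change of the 8 was -3.63, with single values between -5.98 and -1.04, against a median of 0.01 over all genes. Slc25a1 and Elovl6 passed the filter on low values almost only through low fat arrays, so that their place among the 8 was tied to a difference. With no such filter the count was also 8. After 3 days, 5 of the 8 were called lower and none higher (6.87% of all genes were called lower and 7.99% higher), with a median log2 change of -1.74 against -0.01 over all genes. The day 3 count was 3 with no filter on low values, where Slc25a1 (adjusted p = 0.0663) and Elovl6 (adjusted p = 0.0553) lost their calls, and 0 when only the day 3 arrays were fitted. It was also 3 when any 1 of 7 day 3 mice was left out (high fat mice 1, 2, 3 or 4, low fat mice 2, 5 or 6). In none of the 8 did the day 3 groups separate without overlap, while 2.59% of all genes did so in that direction.

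**Figure D1:**
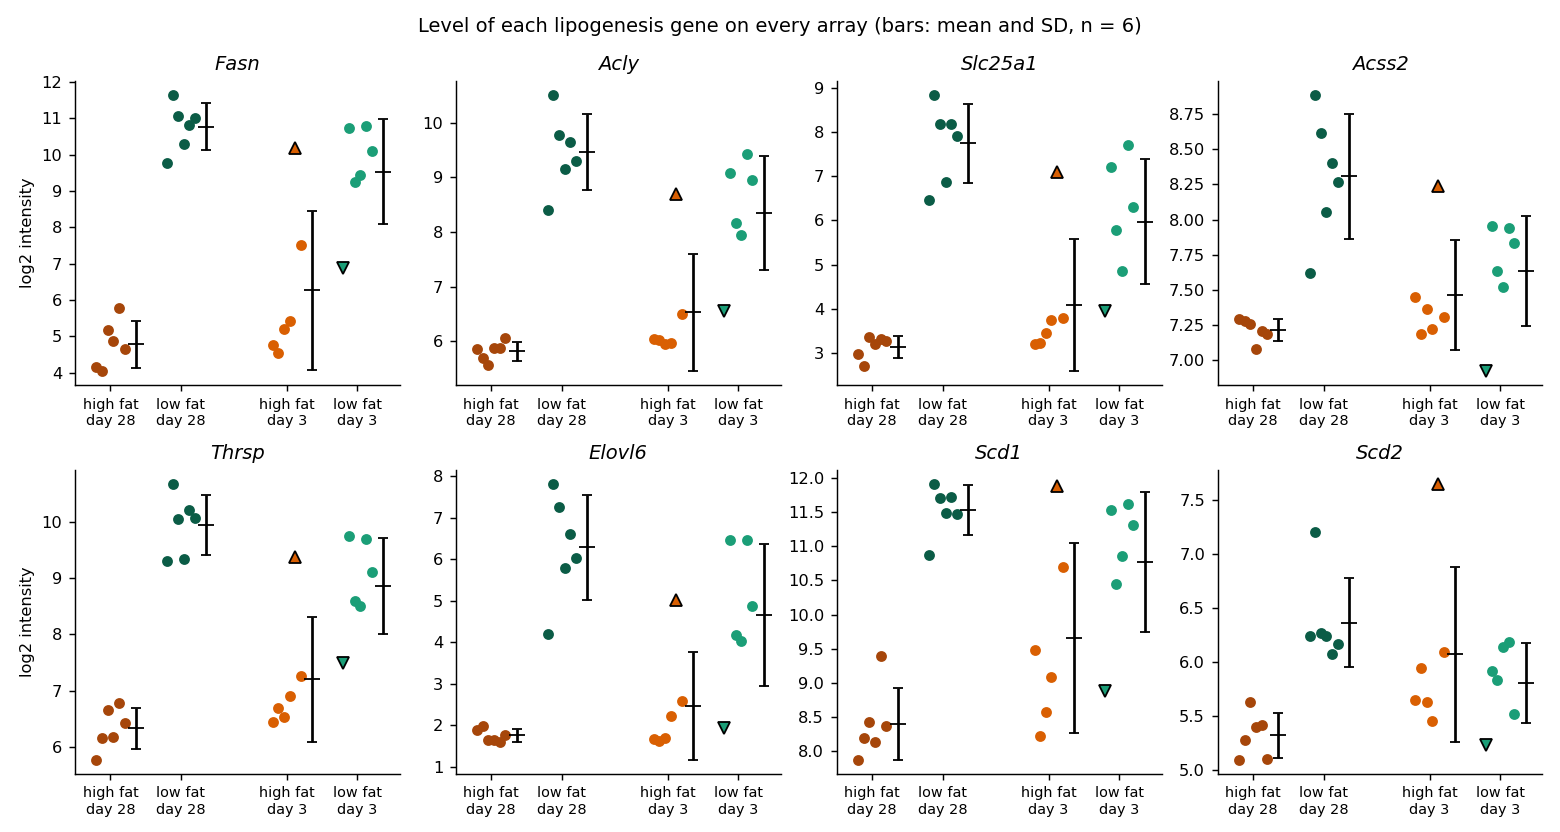
Log2 intensity of the 8 tested members on each of the 24 arrays, with high fat left of low fat at day 28 and then at day 3. Points are mice, bars the mean and SD over 6, the upward triangle is high fat day 3 mouse 5 and the downward triangle low fat day 3 mouse 1. At day 28 the groups do not overlap for any member, and at day 3 the upward triangle lies inside the low fat range for 5 of the 8 and above it for Scd1, Scd2 and Acss2.

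**Figure D2:**
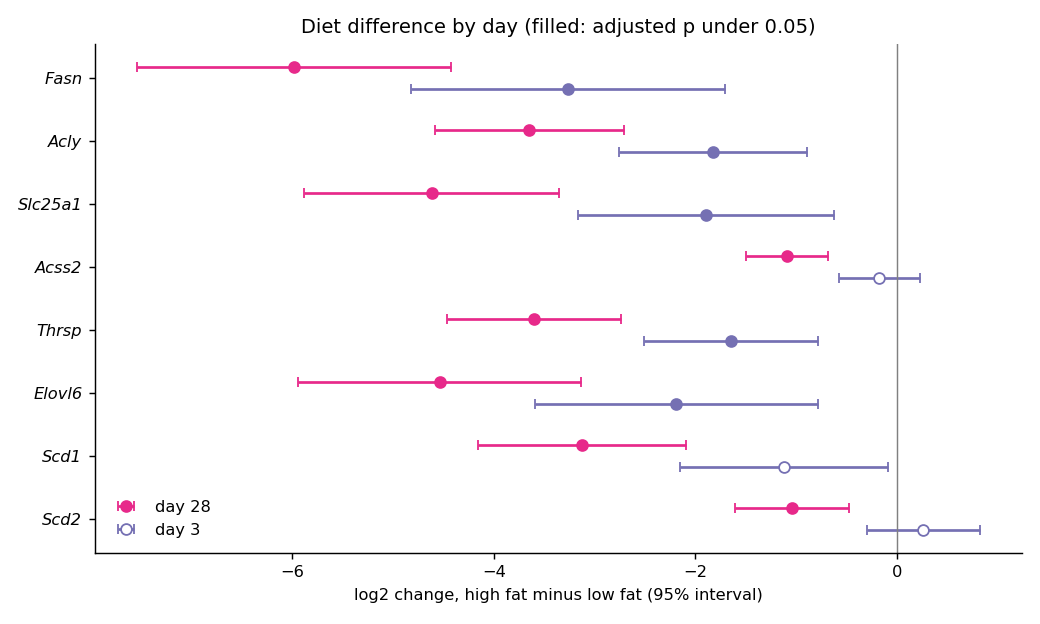
Log2 change of each member, high fat minus low fat, with its 95% interval from limma, at day 28 (upper mark) and day 3 (lower mark), with filled marks at an adjusted p under 0.05. The 8 marks of day 28 are filled and lie below 0, and 5 of the 8 marks of day 3 are filled.

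Fasn, fatty acid synthase, had the lowest log2 change of all 5793 genes at both times. Its level at day 28 was 4.04 at the lowest, 4.77 at the median and 5.79 at the highest on high fat, against 9.78, 10.91 and 11.64 on low fat. The gap between the diets, from the highest high fat mouse to the lowest low fat mouse, was thus wider than the range within either group. The geometric mean intensity was 63.3-fold lower on high fat, with a 95% interval of the log2 change from -7.54 to -4.43 (limma adjusted p = 1.75e-05). At day 3 its level was 4.55 at the lowest, 5.32 at the median and 10.17 at the highest on high fat, against 6.88, 9.77 and 10.80 on low fat. In 4 of the 6 high fat mice Fasn was already within the range of day 28 high fat mice, while mouse 6 stood at 7.50 and mouse 5 at 10.17, among the low fat mice. The change was 9.60-fold, with a log2 interval of -4.82 to -1.71 (limma adjusted p = 0.00519).

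The RNA of genes that supply cytosolic acetyl-CoA followed the same order of groups. Acetyl-CoA itself was not measured. Slc25a1, the citrate carrier, had levels at day 28 of 2.70, 3.23 and 3.37 on high fat (lowest, median and highest), against 6.47, 8.05 and 8.85 on low fat. None of the 6 high fat arrays exceeded 4, and the median of all probe sets on an array lay between 2.71 and 2.79, so the carrier was near the floor of the array on high fat. The fitted change was 24.6-fold (log2 interval -5.89 to -3.35, limma adjusted p = 3.49e-05). It depends on the treatment of dim values and was -3.24 on the scale of log2(intensity + 16). At day 3 the levels were 3.20, 3.59 and 7.10 on high fat, against 3.95, 6.05 and 7.70 on low fat. All high fat mice except mouse 5 lay below every low fat mouse. The log2 change at day 3 was -1.89 (interval -3.16 to -0.62, limma adjusted p = 0.0400), and lost its call when any 1 of 9 of the 24 arrays was left out (highest adjusted p = 0.103).

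Acly, ATP citrate lyase, had levels at day 28 of 5.56, 5.86 and 6.06 on high fat, against 8.40, 9.47 and 10.51 on low fat. The high fat mice were tightly grouped, with an SD of 0.17 against 0.70 on low fat. Mean intensity was 12.5-fold lower (log2 interval -4.58 to -2.71, limma adjusted p = 1.75e-05). At day 3 Acly stood at 5.95, 6.03 and 8.69 on high fat, against 6.56, 8.55 and 9.42 on low fat. Without mouse 5 the high fat group ended at 6.50, below the lowest low fat mouse. The day 3 log2 change was -1.83 (interval -2.76 to -0.89, limma adjusted p = 0.00855). The call was lost with only the day 3 arrays (adjusted p = 0.0555) and without the 4 arrays of highest 3′ to 5′ beta-actin ratio, a sign of RNA quality (adjusted p = 0.0595), as was that of Thrsp (adjusted p = 0.0603 and 0.0528).

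Acss2, which makes acetyl-CoA from acetate, moved by far smaller steps. Its level at day 28 was 7.08, 7.23 and 7.29 on high fat, against 7.62, 8.33 and 8.89 on low fat. Every high fat mouse was lower than every low fat mouse, and the 2.13-fold difference was called (log2 interval -1.49 to -0.68, limma adjusted p = 0.000623). At day 3 the levels were 7.19, 7.34 and 8.24 on high fat, against 6.92, 7.74 and 7.96 on low fat. The diets overlapped there across most of their range, and the log2 change of -0.17 was not called (limma adjusted p = 0.592), with a 95% interval of -0.58 to 0.23.

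Thrsp, a small protein that promotes lipogenesis in liver and fat, had the lowest adjusted p of the 8 at day 28. Its levels there were 5.78, 6.31 and 6.78 on high fat, against 9.30, 10.06 and 10.67 on low fat. The groups were apart by more than the range of either, and intensity was 12.2-fold lower on high fat (log2 interval -4.47 to -2.74, limma adjusted p = 8.07e-06). At day 3 Thrsp stood at 6.45, 6.80 and 9.38 on high fat, against 7.48, 8.85 and 9.74 on low fat. Apart from mouse 5, high fat mice were below all low fat mice. The log2 change was -1.65 (interval -2.51 to -0.79, limma adjusted p = 0.00976).

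Elovl6, the elongase that turns palmitate into stearate, was dim on high fat. It had levels at day 28 of 1.60, 1.71 and 1.98 on high fat, against 4.21, 6.32 and 7.83 on low fat. No high fat array exceeded 4 and all 6 low fat arrays did. The fitted change was 23.2-fold (log2 interval -5.94 to -3.13, limma adjusted p = 9.87e-05), and -2.35 on the scale of log2(intensity + 16), so its size follows the treatment of dim values. At day 3 the levels were 1.63, 1.96 and 5.01 on high fat, against 1.93, 4.53 and 6.48 on low fat. The groups overlapped, with high fat mouse 5 among the low fat mice. Low fat mouse 1 (1.93) also lay below high fat mice 4 (2.21) and 6 (2.58). The log2 change was -2.19 (interval -3.59 to -0.79, limma adjusted p = 0.0326). Leaving out any 1 of 7 arrays ended that call (highest adjusted p = 0.0838).

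Both desaturases were lower on high fat at day 28, and neither was called at day 3. Scd1, the main stearoyl-CoA desaturase of fat and liver, had levels at day 28 of 7.88, 8.28 and 9.39 on high fat, against 10.87, 11.59 and 11.91 on low fat. It was 8.73-fold lower with no overlap of the diets (log2 interval -4.16 to -2.09, limma adjusted p = 0.000197). At day 3 the levels were 8.22, 9.28 and 11.88 on high fat, against 8.88, 11.08 and 11.62 on low fat. Here the highest value of all day 3 mice belonged to high fat mouse 5, and the log2 change of -1.12 was not called (interval -2.15 to -0.08, limma adjusted p = 0.138). It was called without high fat mouse 5 (-1.56, adjusted p = 0.0185) and without low fat mouse 1 (-1.49, adjusted p = 0.0347).

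Scd2, an isoform best known from brain and developing tissue, was at 5.09, 5.34 and 5.63 on high fat at day 28, against 6.07, 6.24 and 7.20 on low fat. The diets did not overlap, and the 2.06-fold difference was called (log2 interval -1.61 to -0.48, limma adjusted p = 0.0127). At day 3 it stood at 5.46, 5.80 and 7.65 on high fat, against 5.23, 5.88 and 6.19 on low fat. The groups lay within one range apart from high fat mouse 5. Its log2 change was 0.26 (interval -0.30 to 0.83, limma adjusted p = 0.550), and -0.05 without that mouse. The difference between Scd1 and Scd2 in their day 3 change was not tested.

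Of the probe sets that member symbols shared with other genes, 1 was annotated to both Me1 and Cbx1. It had a level of 9.98 ± 0.16 on high fat and 10.43 ± 0.30 on low fat at day 28, and of 9.88 ± 0.21 on high fat and 10.24 ± 0.23 on low fat at day 3 (SD, n = 6 each). The probe set is named by the gene number of Me1, but the annotation used here gives both genes. Its source was therefore not settled, and it was not tested. The others were annotated to Fasn with Fas and to Mdh1 with Me1, and were not used for any member.

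The change by diet was larger in size at day 28 than at day 3 for each of the 8, but limma called none of these differences over all genes. The interaction, the diet difference at day 28 minus that at day 3, was between -2.73 (Slc25a1) and -0.92 (Acss2) in log2 units. All 8 members had an unadjusted p under 0.05, and their adjusted p ran from 0.0733 (Scd2) to 0.193 (Elovl6). Of all 5793 genes, 1089 had an unadjusted p under 0.05 in limma in this comparison, while 0.708% were called lower and 0.673% higher. For Scd2, which was not lower at day 3, the interaction was -1.31 with a 95% interval of -2.11 to -0.51. Without low fat day 28 mouse 1, the interaction of Acss2 was called (-1.05, limma adjusted p = 0.0391), and with array weights 5 of the 8 were called (Acly, Slc25a1, Thrsp, Scd2 and Acss2). Array weights also raised the interaction calls over all 5793 genes, to 278 from 80.

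The change over time ran in opposite directions on the diets, and limma called 0 of the 8 in either. On high fat, day 28 minus day 3 was negative for each of the 8, from -1.49 (Fasn) to -0.25 (Acss2), with 3 of 8 at an unadjusted p under 0.05 and the lowest adjusted p at 0.206. On low fat it was positive for each, from 0.56 (Scd2) to 1.78 (Slc25a1), with 5 of 8 at an unadjusted p under 0.05 and the lowest adjusted p at 0.117. Among all 5793 genes, 834 on high fat and 964 on low fat had an unadjusted p under 0.05 in limma. Called were 0.259% lower and 0.293% higher on high fat, and 0.173% lower and 0.173% higher on low fat. These comparisons use the same 4 groups as those by diet, so they are not independent of them. With array weights, 5 of the 8 were called higher at day 28 on low fat, and Acss2 was called higher without low fat day 28 mouse 1 (0.81, limma adjusted p = 0.0409). Array weights also raised the calls over all 5793 genes on low fat, to 132 from 20.

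Single mice carried the members up or down together. Within the high fat day 3 group, mouse 5 had the highest level of 8 of the 8 members, and within the low fat day 3 group mouse 1 had the lowest of 8 of 8. In the low fat day 28 group mouse 2 was highest for 8 of 8 and mouse 1 lowest for 7 of 8. The SD at day 3 exceeded that at day 28 for 8 of the 8 members on high fat and for 6 of the 8 on low fat, the exceptions there being Acss2 and Scd2. For Fasn the SD was 0.65 on high fat and 0.65 on low fat at day 28, and 2.18 on high fat and 1.45 on low fat at day 3. Low fat day 3 mouse 1 was also the array whose extraction notes do not name the removal of genomic DNA. The part of that step in its levels was not tested.

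**Figure D3:**
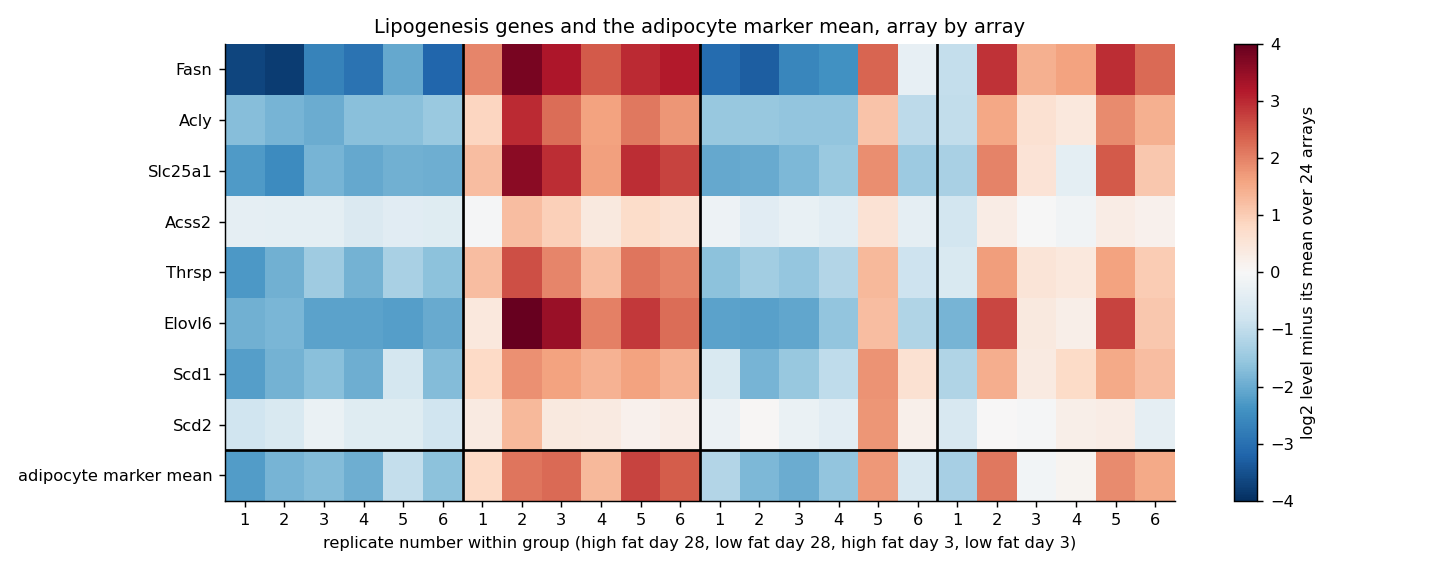
Level of each member and of the adipocyte marker mean on each array, less its own mean over the 24 arrays, on a log2 colour scale limited to 4 in either direction (red higher, blue lower). Columns are the 6 mice of high fat day 28, low fat day 28, high fat day 3 and low fat day 3, and the column of high fat day 3 mouse 5 is red for 8 of the 8 members and the markers.

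Genes of fat cells moved with the members. Of 11 adipocyte markers listed, 8 were tested (Adipoq, Cidec, Retn, Fabp4, Pck1, Lipe, Cidea and Ucp1). Called lower on high fat were 8 of 8 at day 28 and 3 of 8 at day 3, against 7.18% and 6.87% of all genes. Cidea and Ucp1 passed the filter almost only through low fat arrays, so that their place among the 8 was tied to a difference. Their mean levels on high fat at day 28 were 2.37 and 2.25, near the floor of the array. The mean log2 level of the 8 markers ran between 4.76 and 6.05 on high fat and between 7.78 and 9.70 on low fat at day 28. At day 3 it ran between 5.02 and 8.73 on high fat and between 5.66 and 9.10 on low fat. The highest value of high fat day 3 belonged to mouse 5 and the lowest of low fat day 3 to mouse 1, the mice that stood apart for the members. On low fat at day 28 the marker mean was lowest in mouse 1, as were 7 of the 8 members. It was highest in mouse 5 (9.70) there, whereas mouse 2, the highest for 8 of the 8 members, stood at 9.15. On low fat at day 3 the marker mean was highest in mouse 2, and 6 of the 8 members in mouse 5. In summed intensity the listed markers held 2778 to 4234 on high fat and 7314 to 14335 on low fat at day 28, and 3222 to 9977 on high fat and 3798 to 11341 on low fat at day 3. Lep was below a log2 level of 4 on all arrays, and Cfd and Plin1 had no probe set of their own. In a muscle sample, fewer cells of a type and less RNA per cell cannot be told apart.

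Defining muscle genes were bright in every group. The mean log2 level of 7 of them, among them Acta1, Myh4 and Ckm, ran between 13.15 and 13.20 on high fat and 13.03 and 13.16 on low fat at day 28, and between 13.15 and 13.21 on high fat and 13.04 and 13.18 on low fat at day 3. Of the 7, 1 was called at each time, Mb, the oxygen store myoglobin, which was higher on high fat by a log2 change of 0.40 at day 28 and 0.42 at day 3. Over all genes, for this and the counts that follow, 7.18% were called lower and 5.35% higher at day 28. The shares at day 3 were 6.87% lower and 7.99% higher. Macrophage markers were lower on high fat at day 28 in 7 of 7 tested, with a mean log2 level of 5.41 to 6.33 on high fat against 6.37 to 7.40 on low fat. At day 3, 1 of these 7, Cd163, was lower, and their mean level was 5.78 to 6.50 on high fat and 6.11 to 7.36 on low fat. Slow fibre markers were higher on high fat in 6 of 6 at each time, with a median log2 change of 4.72 at day 28 and 5.26 at day 3. Endothelial markers were called in 0 of 5 at day 28, with 4 at an unadjusted p under 0.05 in limma, and were higher in 5 of 5 at day 3 (median log2 change 0.68). Of 5 hepatocyte markers, Alb, Ttr and Serpina1a were below 4 on all arrays, and Cyp2e1, which fat cells also express, was the 1 tested. Cyp2e1 was lower on high fat at both times, with a log2 change of -3.39 at day 28 and -1.50 at day 3. The part of macrophages, endothelial cells and slow fibres in the members' levels was not tested.

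Within the groups, too, the members varied with the adipocyte markers from mouse to mouse. After each group's mean was subtracted, Fasn and the mean of the 8 markers had r = 0.91 and rho = 0.88 over the 24 arrays. Both had a permutation p = 1e-05, the smallest that 100000 permutations within groups could give (adjusted p = 2.67e-05 over 8 relations). Over the 8 members r ran from 0.64 for Scd2 to 0.94 for Thrsp. High fat day 3 mouse 5 and low fat day 3 mouse 1 were the arrays farthest from the median of the markers. Left without them, r was 0.81 for Fasn, 0.88 for Thrsp and 0.68 for Acss2. For Scd2 r was then 0.30, against r = 0.64 (permutation p = 0.017) and rho = 0.47 (permutation p = 0.0436) with them. The subtracted group means still included both mice, so the other mice of their groups kept a shared offset. The r values without those mice are therefore not relations within groups free of their pull. The relation of Scd2 was weaker without them, by an amount that these values do not settle.

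**Figure D4:**
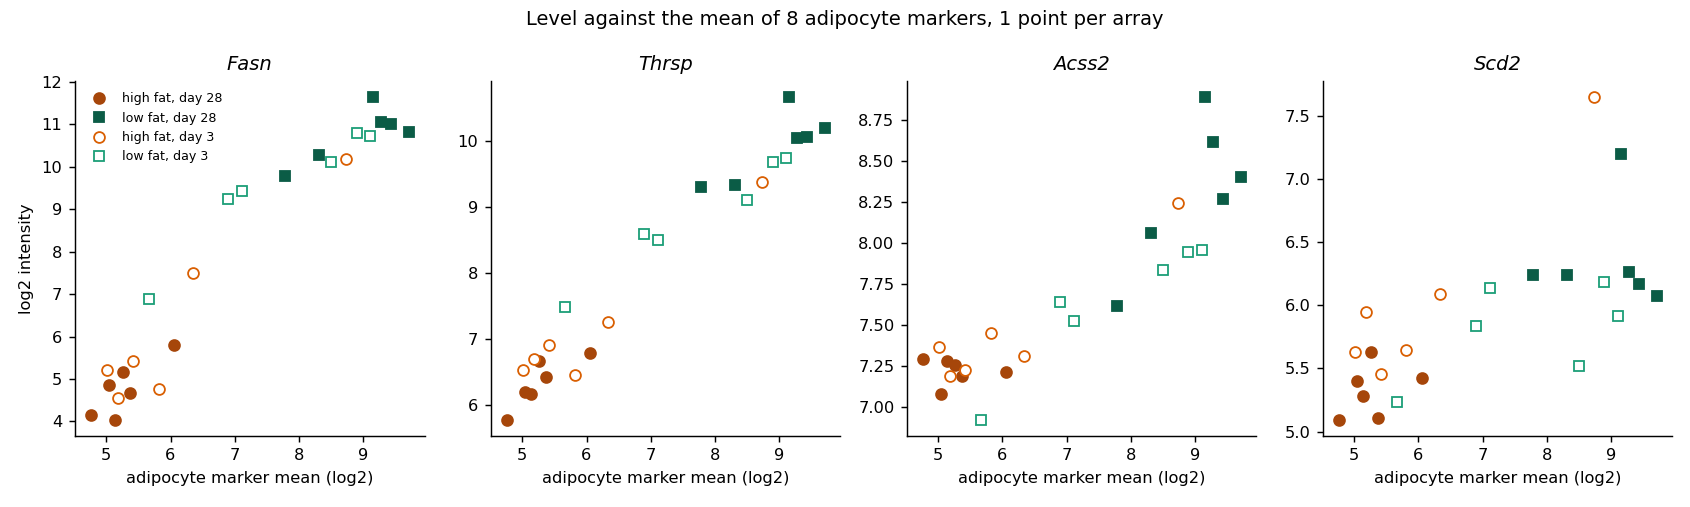
Log2 intensity of Fasn, Thrsp, Acss2 and Scd2 against the mean log2 level of 8 adipocyte markers, with 1 point per array (circles high fat, squares low fat, filled at day 28 and open at day 3). Fasn and Thrsp climb along the marker mean across the groups, whereas most arrays of Scd2 lie between 5 and 6.3 at any marker mean.

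With the mean of the adipocyte markers added to the limma model, the diet difference was smaller in size for 8 of the 8 members at day 28 and for 6 of the 8 at day 3, the exceptions being Scd2 and Acss2. At day 28, 1 of the 8 was then called, Thrsp, with a log2 change of -1.10 (adjusted p = 0.0420), while Fasn had -1.61 (adjusted p = 0.248) and Scd1 -0.21 (adjusted p = 0.881). The marker mean did not overlap between the diets at day 28, and 32 of all genes were called in that fit, against 726 without the markers. At day 3, where the diets overlap in the marker mean, Fasn was lower, at -1.35 (adjusted p = 0.0189), and Thrsp was lower, at -0.55 (adjusted p = 0.0359). Scd2 was higher, at 0.75 (adjusted p = 0.0454). Acly had -0.68 (adjusted p = 0.0512), Slc25a1 -0.32 (adjusted p = 0.502) and Elovl6 -0.52 (adjusted p = 0.389) in the same fit. The sign of Acss2 (0.27, adjusted p = 0.180) and Scd1 (0.16, adjusted p = 0.704) was positive.

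The genes most like Fasn in level over the 24 arrays, members aside, were Cdo1 (r = 0.99), Pck1 (0.98), Pygl (0.98), Arxes2 (0.98) and Cidec (0.97). Cdo1 makes cysteine sulfinate, Pck1 is the carboxykinase of gluconeogenesis and glyceroneogenesis, Pygl is the liver form of glycogen phosphorylase and Cidec coats lipid droplets. Among the members, Thrsp stood at r = 0.99, Acly 0.97, Scd1 0.97, Slc25a1 0.96, Elovl6 0.95, Acss2 0.85 and Scd2 0.70. With group means subtracted the nearest genes that are no members were Cdo1 (0.95), Orm1 (0.94), Retn (0.93), Pck1 (0.93) and Mmd (0.92), and Scd1 (0.95) was the nearest of all. The points share arrays and animals, and these values are descriptions without a test.

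Of 14 regulators of the pathway listed, 7 were tested. At day 28, 3 were lower on high fat and none higher (7.18% of all genes were called lower and 5.35% higher), with a median log2 change of -0.05. Cebpa, a transcription factor of fat cell differentiation, had a log2 change of -3.36 ± 0.48 (SE), Pparg, the master regulator of fat cells, -2.51 ± 0.40, and Insig1, which retains SREBP in the endoplasmic reticulum and is itself an SREBP target, -1.50 ± 0.29. These 3 were dim on high fat at day 28, with mean levels of 3.38 for Cebpa, 2.73 for Pparg and 3.30 for Insig1, near the array medians of 2.71 to 2.79, so the size of their change follows the background correction. Pparg passed the filter on low values mostly through low fat arrays, so that its place among the 7 was tied to a difference. With a filter of log2 over 6 on 6 arrays, 1 regulator was called lower at day 28. Mlxipl, which encodes ChREBP, was level between the diets at 0.02 ± 0.19 at day 28 and 0.15 ± 0.19 at day 3, neither called. Scap (0.13 ± 0.09), the escort of SREBP, was not called at day 28. At day 3 limma called none of the 7, with 2 at an unadjusted p under 0.05, namely Cebpa (-1.27) and Mid1ip1, the paralogue of Thrsp (0.36). Of all 5793 genes, 1707 had an unadjusted p under 0.05 in limma there, while 6.87% were called lower and 7.99% higher. Srebf1, Mlx, Nr1h2 and Usf2 had no probe set of their own, and Srebf2, Nr1h3 and Usf1 did not pass the filter.

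Of 8 genes listed around the supply of NADPH, 5 were tested, and G6pdx, Pgd and Me2 had no probe set of their own. At day 28, 4 of the 5 were lower on high fat, against 7.18% of all genes, with a median log2 change of -0.56. NADPH itself was not measured. Tkt, transketolase, had -2.91 ± 0.38 (SE), Taldo1, transaldolase, -0.55 ± 0.11, H6pd, the hexose dehydrogenase of the endoplasmic reticulum, -0.56 ± 0.14, and cytosolic isocitrate dehydrogenase Idh1 -0.59 ± 0.16. At day 3, 2 of 5 were lower, Tkt (-1.29) and H6pd (-0.53), against 6.87% of all genes. Idh1 had 0.29 ± 0.16 at day 3 (limma adjusted p = 0.213), and its interaction of -0.88 ± 0.22 was called (limma adjusted p = 0.0452). That interaction call, the only one of the list, was lost when any 1 of 17 of the 24 arrays was left out. It was also lost with no filter on low values, with the adipocyte markers in the model or without the 4 arrays of highest beta-actin ratio. The count of 4 lower at day 28 stayed at 4 without any 1 array.

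Further enzymes of fatty acid synthesis were lower in 4 of 9 tested and higher in 1 at day 28, with a median log2 change of -0.11. Over all genes, 7.18% were called lower and 5.35% higher at day 28, and 6.87% lower and 7.99% higher at day 3. Hsd17b12, a reductase of the elongation cycle, had -2.35 ± 0.32 (SE), and Elovl5, which lengthens polyunsaturated acids, -0.81 ± 0.14. Mlycd, which breaks down malonyl-CoA, was the 1 higher (0.46 ± 0.11). Acsl3, an acyl-CoA synthetase of lipid droplets, was lower at both times, with -0.68 ± 0.17 at day 28 and -0.74 ± 0.17 at day 3, where it was the 1 called of 9.

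Triglyceride synthesis genes were lower in 4 of 7 tested and higher in 1 at day 28, with a median log2 change of -0.45. The shares over all genes were 7.18% lower and 5.35% higher at day 28, and 6.87% lower and 7.99% higher at day 3. Dgat1 (-1.78 ± 0.35, SE) and Dgat2 (-1.24 ± 0.32) add the last acyl chain, and Gpat3 (-0.998 ± 0.226) the first. Dgat1 was at most 3.99 on high fat at day 28. It passed the filter on low values mostly through low fat arrays, so that its place among the 7 was tied to a difference. With a filter of log2 over 6 on 6 arrays, 2 genes of the list were called lower at day 28. Lpin1, a phosphatidate phosphatase, had -0.45 ± 0.12 at day 28 and -0.66 ± 0.12 at day 3, the 1 called lower at that time. Agpat3, an acyltransferase of the middle step, was the 1 higher at each time, with 0.32 at day 28 and 0.37 at day 3. With the mean of the adipocyte markers in the model, limma called 0 of the 28 tested genes of these 4 lists at day 28, with 3 lower and 2 higher at an unadjusted p under 0.05. At day 3, where the diets overlap in the marker mean, 3 of the 28 were then called higher and 2 lower.

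**Figure D5:**
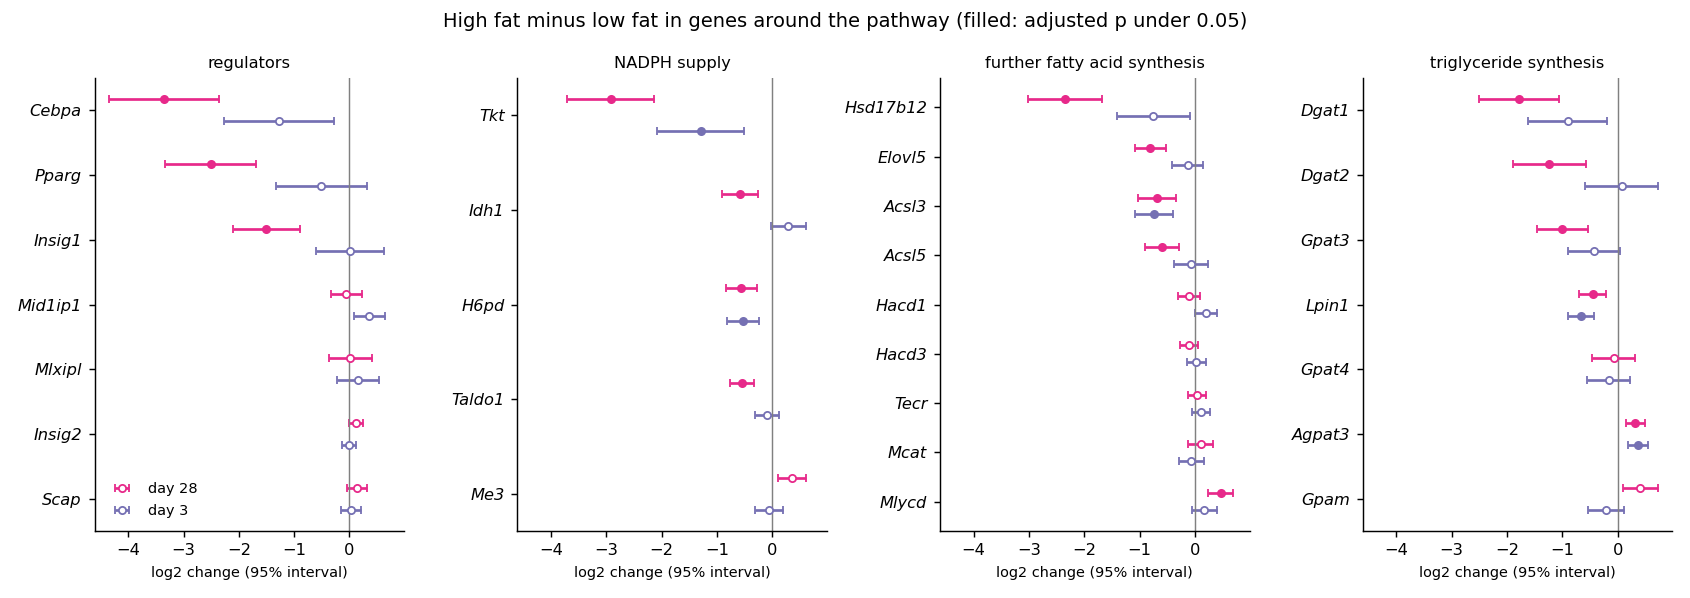
Log2 change, high fat minus low fat, with its 95% interval from limma, for the tested genes of 4 lists around the pathway at day 28 (upper mark) and day 3 (lower mark), filled at an adjusted p under 0.05. Cebpa, Tkt, Hsd17b12 and Dgat1 have the lowest day 28 value of their lists.

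Across libraries the arrays were alike, with r between 0.978 and 0.995 for any pair over all probe sets. The log2 ratio of the 3′ to the 5′ beta-actin control, a sign of RNA quality, ran from -0.19 to 0.37, and high fat day 3 mouse 5 stood at 0.10. Without the 4 arrays of highest ratio, 2 of which are high fat day 3 mice, 1 member was called at day 3 (Fasn) and 8 at day 28. When only the 12 day 3 arrays were fitted, 0 of the 8 were called by limma and 5 had an unadjusted p under 0.05, with adjusted p from 0.0501 (Fasn) to 0.132 (Slc25a1) for the 5 called over 24 arrays.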

How the data were processed

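The authors hybridised quadriceps RNA of 24 mice to Affymetrix mouse genome arrays and deposited 1 intensity per probe set, computed with GCRMA per the submitters' processing notes (version and genome build not given in the sources used here). GCRMA corrects the background from probe sequence, so dim values follow that correction. Intensities ran from 0.881 to 20520 on a linear scale. Here log2 was taken with no offset. Of the probe sets, 14771 had 1 gene symbol and 589 several, which were given to no gene. The brightest probe set stood for a gene. Genes over a log2 level of 4 on at least 6 arrays were tested.

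A model of the 4 group means over all 24 arrays, with 20 residual degrees of freedom, gave two-sided moderated tests of 5 comparisons (limma 3.58.1, under R 4.3.3). The code was tested on simulated data. Members, lists and tests were chosen with earlier results of these data known. Named genes were the members and, of each list, up to 4 of lowest p in a comparison. Mlxipl, Scap and Agpat3 at day 28 are named beyond that rule, after their values were seen. Labels gave groups and mouse numbers. Offset, filters, quantile normalization, weights, blocks, a marker covariate and left-out arrays were tried as alternatives.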

Additional observations from a re-analysis of the deposited data

Results flagged for a closer look

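In 8 of 32 sets of 6 mice, 1 mouse stood apart by more than Dixon's 95% limit of 0.625 of the range. For a single set, chance gives about 1 in 20. The sets are different members on the same mice and are not independent, so that rate cannot be used to judge the count. High fat day 3 mouse 5 stood apart for 6 members, always above its group. These were Acly at 8.69, Slc25a1 at 7.10, Thrsp at 9.38, Scd2 at 7.65, Elovl6 at 5.01 and Acss2 at 8.24 (log2). The next highest mice of the group stood at 6.50, 3.78, 7.26, 6.09, 2.58 and 7.45 for these genes. The same mouse had an adipocyte marker mean of 8.73, the highest of its group. Scd1 stood apart in high fat day 28 mouse 5, at 9.39 with the next at 8.42, and Scd2 in low fat day 28 mouse 2, at 7.20 with the next at 6.27.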

How the results depend on the processing

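At day 28, 8 members were called under 10 of 11 other settings and without any 1 array (range 8 to 8), and 1 with the adipocyte markers in the model, where Scd2 turned to 0.076. At day 3 the count of 5 became 0 with only the arrays compared, 3 with no filter on low values, 3 with log2(intensity + 16), 3 with the adipocyte covariate and 1 without the 4 arrays of highest beta-actin ratio. Without 1 array it ran from 3 to 6. It was 3 without high fat day 3 mice 1, 2, 3 or 4 or low fat day 3 mice 2, 5 or 6. The adipocyte covariate turned the day 3 sign of Scd1 (0.16) and Acss2 (0.27), that of Elovl6 over time on high fat (0.13), and those of Fasn (-0.26) and Scd1 (-0.24) over time on low fat. Scd2 at day 3 ran from -0.051 (without high fat day 3 mouse 5) to 0.387 when 1 array was left out. For the interaction the count of 0 became 5 with array weights, 3 with the replicate block, and 0 to 1 without 1 array, and could not be had from only the arrays compared. For day 28 against day 3 it was 5 on low fat with array weights and 0 to 1 without 1 array there, and 0 to 0 on high fat. The cause of these shifts was not tested, except that fewer arrays or genes enter some fits.

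Replicate numbers name single mice and pair none by the labels. Same-numbered arrays correlated at -0.44 to 0.61 after group means were subtracted, so the replicate block is given only here: it left the diet counts at 8 and 5 and raised the interaction count to 3 (Slc25a1, Thrsp and Acss2). Over all genes, day 3 calls numbered 507 with only the arrays compared, against 861. The adipocyte covariate left 32 at day 28, against 726. Interaction calls, 80 in the main setting, ran from 6 (no filter) to 278 (array weights). Calls over time ran from 5 to 106 on high fat (main 32) and from 0 to 132 on low fat (main 20) over these settings. Values of Slc25a1 and Elovl6 on high fat are near the array's floor, so their fold sizes are limited by the background correction.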
